A study of Mus musculus with 12 samples.

Results

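The genes described here are 9 steroid dehydrogenases and reductases of mouse liver, Hsd3b2, Hsd3b3, Hsd3b5, Hsd11b1, Hsd17b2, Srd5a1, Akr1c6, Akr1c14 and Akr1c20. They were chosen by symbol, and all 9 were found among the 24197 entries of the RefSeq table. The livers came from untreated, intact CD-1 mice, an outbred stock, aged 7 to 11 weeks. RNA depleted in part of ribosomal RNA was sequenced in 4 groups, which were male nuclear, female nuclear, male total and female total RNA, with 3 pools of 12 to 17 mice per group. Nuclear RNA came from nuclei spun out of homogenised liver through sucrose. Levels are the authors' mean FPKM per group (read counts scaled by gene length and library size, so that genes can be compared per length), and values of single pools were not used here. No SD can be given for that reason. The spread between pools enters only through the adjusted p of the authors' deposited table. A gene was called where that p was under 0.05. All log2 values between the sexes are male over female.

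Steroid hormones are switched on and off in the tissue that uses them by enzymes that oxidise a hydroxyl group to a ketone or reduce it back, and by reductases that saturate the steroid ring. The liver is a main site of these reactions, through the 3β-, 11β- and 17β-hydroxysteroid dehydrogenases, the steroid 5α-reductase and the aldo-keto reductases of the AKR1C group. In rodent liver many genes of steroid and drug metabolism differ between the sexes under the control of the growth hormone pattern, and Hsd3b5 is a known male marker.

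The promoters of 4 members are shown because these are the genes called higher in males in both RNA fractions. They are 250 bases before the annotated start, 5′ to 3′ in the direction of the gene, from RefSeq on GRCm38.p6, at chr3:98645535-98645784 (Hsd3b5), chr3:98763129-98763378 (Hsd3b3), chr3:98724544-98724793 (Hsd3b2) and chr13:69611464-69611713 (Srd5a1), all on the minus strand. Capitals mark the longest run of bases that the Hsd3b5 and Hsd3b3 promoters share.
Hsd3b5: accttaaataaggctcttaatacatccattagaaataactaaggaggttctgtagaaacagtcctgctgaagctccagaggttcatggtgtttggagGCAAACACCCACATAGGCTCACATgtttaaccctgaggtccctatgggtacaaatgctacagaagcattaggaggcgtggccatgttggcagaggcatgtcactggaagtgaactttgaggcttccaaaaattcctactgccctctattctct
Hsd3b3: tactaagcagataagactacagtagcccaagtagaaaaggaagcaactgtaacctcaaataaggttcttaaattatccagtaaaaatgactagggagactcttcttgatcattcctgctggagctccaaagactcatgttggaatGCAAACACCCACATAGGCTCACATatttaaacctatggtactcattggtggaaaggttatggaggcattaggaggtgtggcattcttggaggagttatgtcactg
Hsd3b2: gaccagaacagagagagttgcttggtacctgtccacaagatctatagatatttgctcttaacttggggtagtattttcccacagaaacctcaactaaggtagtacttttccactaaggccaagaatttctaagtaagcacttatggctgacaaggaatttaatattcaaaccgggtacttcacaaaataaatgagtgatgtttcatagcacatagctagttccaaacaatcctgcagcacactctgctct
Srd5a1: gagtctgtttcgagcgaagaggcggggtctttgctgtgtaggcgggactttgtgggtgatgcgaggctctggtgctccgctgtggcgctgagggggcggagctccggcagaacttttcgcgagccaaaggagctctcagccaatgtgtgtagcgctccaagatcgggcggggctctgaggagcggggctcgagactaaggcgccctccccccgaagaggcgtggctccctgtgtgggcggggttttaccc

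The shared run was 24 bases long, and among 32851 promoters of the same length only the Hsd3b5 and Hsd3b3 entries held it (3 entries, since Hsd3b3 has 2 annotated starts with windows of 98.8% identity). Because the run was picked from these promoters, its absence from the others is a description and tests nothing. The run began 153 bases before the start of Hsd3b5 and 105 bases before that of Hsd3b3. The Hsd3b2 window shared no run longer than 8 bases with either of them, which is also the longest run between Hsd3b3 and Srd5a1. GC content was 45.2% in Hsd3b5, 41.2% in Hsd3b3, 39.6% in Hsd3b2 and 64.8% in Srd5a1, against a median of 52.4% over all promoters. A search on both strands for TTCNNNGAA, the STAT motif, and for ATTGAT, a core bound by the factors HNF6 and CUX2, found neither in the windows of the 7 members with an entry. Of all promoters of this length, 7.02% held the first and 6.72% the second, and the absence of these letters says nothing about binding elsewhere. Hsd17b2 and Akr1c20 had no entry.

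The nuclear libraries all ran in lane 4. In total RNA all male pools ran in lane 3, with 1 female pool, while 2 female pools ran in lane 4, so sex overlaps with lane in part. RNA fraction and lane cannot be told apart in males and overlap in part in females. Comparisons within a lane need values per pool and were not made. Library sizes were inferred, within a fixed window of sizes, from short genes taken as having 1 read in 1 of 3 pools. The commonest size was 22.1 M reads in male nuclear and 22.7 M in female nuclear RNA. In total RNA it was 24.4 M in males and 21.05 M in females. At these sizes and at the exonic length in a later annotation, the members had from about 22 reads per pool (Srd5a1 in female nuclear RNA) to about 3500 (Akr1c6 in female total RNA). The authors' ratios are scaled between libraries. In the median gene this scaling added 0.12 (nuclear) and 0.48 (total) to log2 male over female, relative to the plain quotient of means, called unscaled here. No hepatocyte marker of 6 was at 0, with summed levels of 374 and 419 FPKM in male and female nuclear RNA and 3833 and 6690 FPKM in male and female total RNA. Of these 6, 2 were called higher in males (Apoa1 and Serpina1a) and 1 in females (Tat) in nuclear RNA, and 3 in males (Apoa1, Apob and Serpina1a) and 1 in females (Alb) in total RNA, in the authors' deposited table.

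Of the 9 members, 5 were called higher in males and 2 higher in females in nuclear RNA, while total RNA gave 4 and 1, in the authors' deposited table. Over all RefSeq genes above 0 the table called 5.8% in nuclear RNA (2.82% on the male side, 2.98% on the female side) and 4.46% in total RNA (2.1% on the male side, 2.36% on the female side). Of these genes, 5759 of 17467 in nuclear and 6175 of 16404 in total RNA reached 1 FPKM in a sex. All 9 members reached 1 FPKM in a group, and the share called among genes of that level was not computed. Hsd3b5, Hsd3b2, Hsd3b3 and Srd5a1 were higher in males in both fractions, and Akr1c20 was higher in females in both. Akr1c14 (male higher) and Hsd17b2 (female higher) were called in nuclear RNA but not in total RNA, and Akr1c6 and Hsd11b1 in neither. The median deposited log2 of the 9 members was 0.62 in nuclear and 0.44 in total RNA. Over all genes of at least 1 FPKM in a sex in that fraction it was -0.01 and 0.00. The members were not held to that minimum, and Srd5a1 lay under it in nuclear RNA (0.948 FPKM in males and 0.366 FPKM in females). A nuclear median without Srd5a1 was not computed. On the unscaled quotient the median of the members in total RNA was -0.08, against -0.48 over all genes. In bulk RNA, fewer cells of a type and less RNA per cell cannot be told apart.

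**Figure D1:**
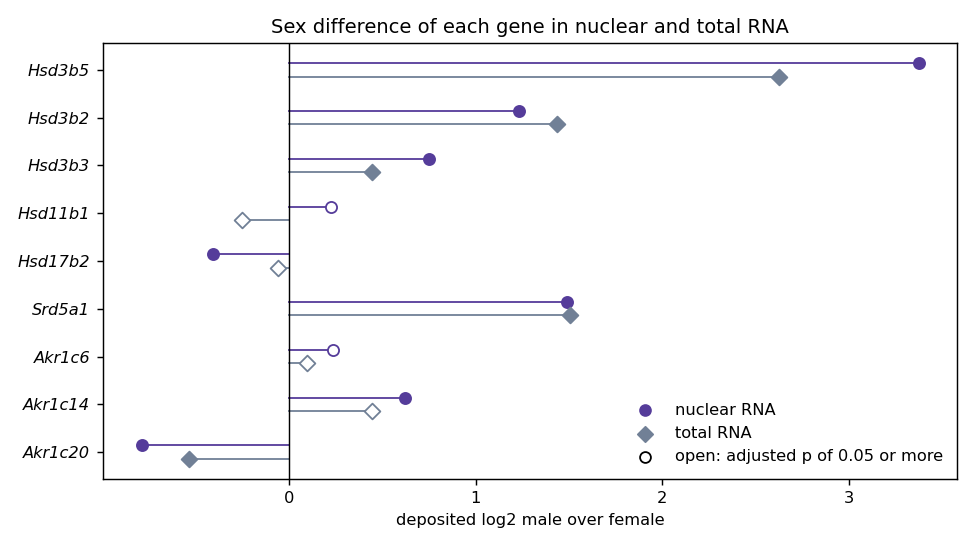
Deposited log2 male over female (x axis) of each member (rows) in nuclear RNA (circles) and total RNA (diamonds), with open symbols where the adjusted p was 0.05 or more. Hsd3b5 lies farthest to the right in both fractions, at 3.37 and 2.63, and Akr1c20 farthest to the left, at -0.79 and -0.53.

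The 3β-hydroxysteroid dehydrogenase genes lay together on chromosome 3 and all 3 were called higher in males. Hsd3b5 (mm9 chr3:98422558-98449457), which in the mouse encodes a 3-ketosteroid reductase of this family, had the authors' mean of 6.28 FPKM in male and 0.658 FPKM in female nuclear RNA. In total RNA its means were 16.3 FPKM in males and 3.38 FPKM in females. The authors' deposited table gave a log2 of 3.37 at adjusted p = 3.4e-80 in nuclear RNA and log2 2.63 at adjusted p = 2.7e-33 in total RNA for Hsd3b5, that is a 10.4-fold and a 6.17-fold higher level in males. The female nuclear value rested on about 23 reads per pool.

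Hsd3b2 (mm9 chr3:98515029-98528466) and Hsd3b3 (mm9 chr3:98545398-98567051) encode enzymes that turn 3β-hydroxysteroids into 3-ketosteroids. Hsd3b2 stood at 17.7 FPKM in male and 8.18 FPKM in female nuclear RNA and at 11.5 FPKM in male and 5.49 FPKM in female total RNA. For Hsd3b2 the authors' deposited table gave a log2 of 1.23 at adjusted p = 5.1e-11 in nuclear and log2 1.44 at adjusted p = 2e-13 in total RNA. It was the only member whose nuclear mean lay above its total mean.

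Hsd3b3 stood at 8.57 FPKM in male and 5.52 FPKM in female nuclear RNA. In total RNA its means were nearly equal, 10.1 FPKM in males and 9.94 FPKM in females. In the authors' deposited table Hsd3b3 had a log2 of 0.75 at adjusted p = 3.4e-11 in nuclear and log2 0.44 at adjusted p = 0.015 in total RNA. The value in total RNA came almost wholly with the scaling between libraries, since the unscaled quotient was log2 0.02.

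The reading frames of these genes, 1122 bases each in GENCODE M21, are close copies. Hsd3b2 and Hsd3b3 were 95.1% identical with a common run of 228 bases, while Hsd3b5 was 80.9% identical to Hsd3b2 and 80.3% to Hsd3b3 with runs of 32 and 41 bases. The nearest relative of Hsd3b5 was Hsd3b4 (95.2% identity, common run of 166 bases), which was listed at 0 FPKM in all 4 groups. Hsd3b6, 94.4% identical to Hsd3b2, was listed at 0 in total RNA in both sexes and in female nuclear RNA, and at 0.00834 FPKM in male nuclear RNA. How reads were divided among Hsd3b2, Hsd3b3 and Hsd3b6, and between Hsd3b5 and Hsd3b4, is uncertain for this reason and was not tested.

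**Figure D2:**
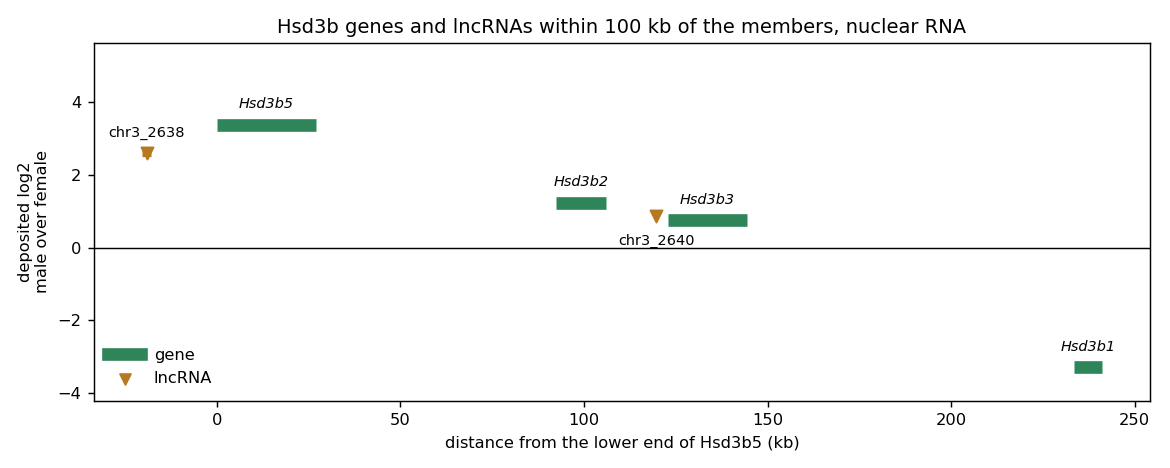
Hsd3b genes (green bars) and lncRNAs within 100 kb of a member (triangles) by distance from the lower end of Hsd3b5 in kb (x axis) and deposited log2 male over female in nuclear RNA (y axis). Genes and lncRNAs listed at 0 in a sex are left out (Hsd3b4, Hsd3b6 and ncRNA_inter_chr3_2639). The 3 members lie above 0 and Hsd3b1, beyond them, at -3.28.

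Hsd3b1, the form of the adrenal gland and gonads, was named for its place in the cluster after its values were seen, and it was low in liver. It stood at 0.0162 FPKM in male and 0.203 FPKM in female nuclear RNA, and was listed at 0 in male total RNA against 0.336 FPKM in female total RNA. It was called higher in females in both fractions of the authors' deposited table, with adjusted p = 0.00059 in nuclear and adjusted p = 9.8e-05 in total RNA. The neighbouring Hsd3b genes therefore did not all differ in the same direction.

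Srd5a1 (mm9 chr13:69712326-69750341), the steroid 5α-reductase that acts on testosterone and glucocorticoids in liver, had the lowest level of the 9 members in every group. Its means were 0.948 FPKM in male and 0.366 FPKM in female nuclear RNA, and 2.59 FPKM in male and 1.24 FPKM in female total RNA. In the authors' deposited table Srd5a1 had a log2 of 1.49 at adjusted p = 0.0001 in nuclear and log2 1.51 at adjusted p = 1.2e-16 in total RNA. On these deposited values the size of the difference was nearly the same in both fractions. The unscaled quotients were log2 1.37 in nuclear and 1.07 in total RNA.

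Hsd17b2 (mm9 chr8:120225845-120282929) oxidises oestradiol and testosterone to weaker 17-ketosteroids. Its means were 6.46 FPKM in male and 9.29 FPKM in female nuclear RNA, and 13.6 FPKM in male and 19.004 FPKM in female total RNA. For Hsd17b2 the authors' deposited table gave a log2 of -0.40 at adjusted p = 0.02 in nuclear and log2 -0.06 at adjusted p = 1 in total RNA. On the unscaled quotients the fractions lay close together, at log2 -0.52 in nuclear and -0.48 in total RNA.

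Hsd11b1 (mm9 chr1:195047834-195090239), which regenerates active corticosterone in liver, was not called in either fraction. It had 2.02 FPKM in male and 1.86 FPKM in female nuclear RNA, and 30.2 FPKM in male and 50.4 FPKM in female total RNA. In the authors' deposited table Hsd11b1 had a log2 of 0.23 at adjusted p = 0.9 in nuclear and log2 -0.25 at adjusted p = 0.12 in total RNA. Its nuclear FPKM was far below its total FPKM in both sexes, each on the scale of its own library.

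The aldo-keto reductase genes lay on chromosome 13. Akr1c6 (mm9 chr13:4433588-4456776), the liver 17β-hydroxysteroid dehydrogenase type 5, was the most abundant member in all 4 groups. It stood at 25.6 FPKM in male and 23.6 FPKM in female nuclear RNA and at 74.5 FPKM in male and 97.5 FPKM in female total RNA. The authors' deposited table gave a log2 of 0.23 at adjusted p = 0.21 in nuclear and log2 0.10 at adjusted p = 1 in total RNA for Akr1c6, and the unscaled quotient in total RNA had the other sign, -0.39.

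Akr1c14 (mm9 chr13:4058836-4089668), a 3α-hydroxysteroid dehydrogenase, had 4.82 FPKM in male and 3.39 FPKM in female nuclear RNA. In total RNA its means were 14.98 FPKM in males and 15.8 FPKM in females. For Akr1c14 the authors' deposited table gave a log2 of 0.62 at adjusted p = 0.0001 in nuclear and log2 0.44 at adjusted p = 0.069 in total RNA, where the unscaled quotient was -0.08.

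Akr1c20 (mm9 chr13:4506404-4522579), a further aldo-keto reductase, was the only member called higher in females in both fractions. Its means were 2.37 FPKM in male and 4.45 FPKM in female nuclear RNA and 4.32 FPKM in male and 8.81 FPKM in female total RNA. In the authors' deposited table Akr1c20 had a log2 of -0.79 at adjusted p = 3.5e-05 in nuclear and log2 -0.53 at adjusted p = 0.0055 in total RNA. Its reading frame was 92.3% identical to that of Akr1c6, with a common run of 65 bases, against 76.8% to that of Akr1c14, and how reads were divided between Akr1c20 and the more abundant Akr1c6 was not tested.

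**Figure D3:**
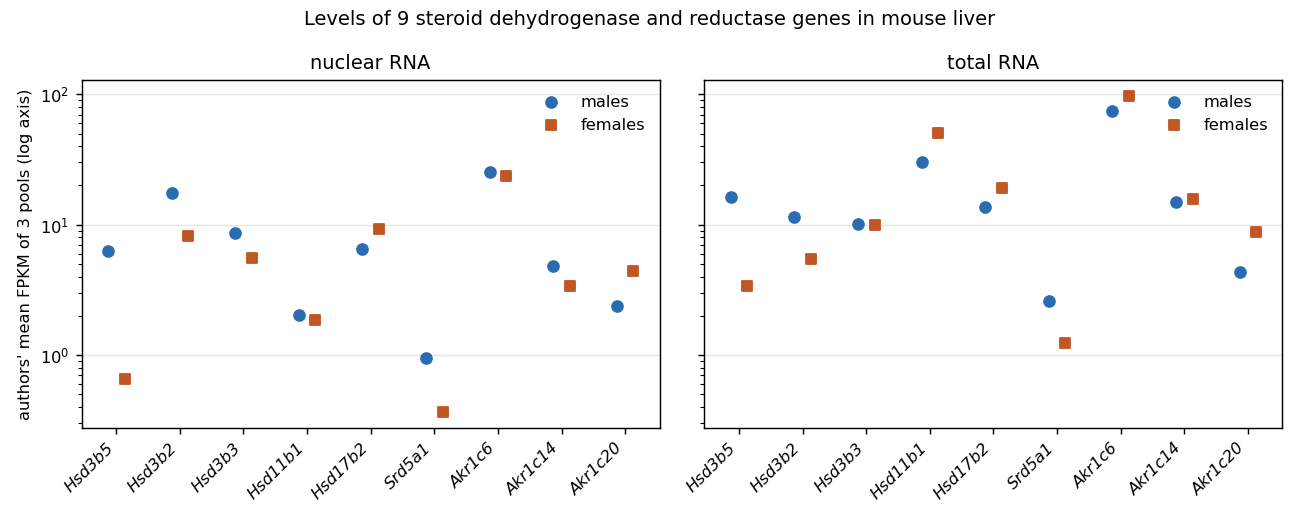
The authors' mean FPKM of 3 pools (log axis) of each member in nuclear RNA (left) and total RNA (right), in males (circles) and females (squares). Akr1c6 is highest and Srd5a1 lowest in all 4 groups, and Hsd3b5 shows the widest gap between the sexes.

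The order of levels differed between the sexes and fractions. In total RNA the male order was Akr1c6, Hsd11b1, Hsd3b5, Akr1c14, Hsd17b2, Hsd3b2, Hsd3b3, Akr1c20 and Srd5a1. In female total RNA Hsd17b2 and Akr1c14 followed Hsd11b1, and Hsd3b5 was the eighth of 9. In male nuclear RNA Hsd3b2 and Hsd3b3 followed Akr1c6, and in female nuclear RNA Hsd17b2 and Hsd3b2. The highest member exceeded the lowest 27.0-fold in male nuclear, 64.4-fold in female nuclear, 28.8-fold in male total and 78.8-fold in female total RNA. With no values per pool, whether neighbours in these orders differ was not tested.

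The summed level of the 9 members was 74.7 FPKM in male and 57.3 FPKM in female nuclear RNA, and 178 FPKM in male and 212 FPKM in female total RNA. Akr1c6 made up 34.2% of this sum in male and 41.2% in female nuclear RNA, and 41.8% in male and 46.1% in female total RNA. Hsd3b2 made up 23.6% in male nuclear RNA and 6.48% in male total RNA. Hsd11b1 made up 2.70% in male nuclear RNA and 17.0% in male total RNA.

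The nuclear level relative to the total level was expressed as log2((nuclear + 1)/(total + 1)) of the mean FPKM, less the median over the 7306 genes of at least 1 FPKM in a group. Of the 9 members, 8 lay under that median in males and in females, and Hsd3b2 lay above it. Hsd11b1 was the lowest, at -3.30 in males and -3.86 in females, which placed it at percentile 0.192 and 0.0821 of these genes. The quotient of its nuclear over its total FPKM, which are scaled separately, was 0.0667 in males and 0.0370 in females. Akr1c6 lay at -1.43 in males and -1.70 in females, and Akr1c14 at -1.38 in males and -1.64 in females. Genes outside the members lay far to either side. The membrane protein gene Pgrmc1 was at -3.10 in males and -3.56 in females, and the receptor gene Nr1i3 at 1.71 and 1.55. The count of 8 of 9 was not set against genes of like level, so it shows nothing particular to the members.

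Hsd3b5 lay at -1.17 in males and -1.10 in females on this scale. With no pseudocount its value in females was -1.85, below Akr1c14 (-1.71) and Akr1c6 (-1.53), so the order of these 3 depends on the pseudocount. Hsd3b2, by contrast, lay at 0.65 in males and 0.80 in females, percentiles 82.2 and 84.2. Hsd3b3, its close copy, lay between, at -0.13 in males and -0.44 in females. Hsd17b2, Srd5a1 and Akr1c20 ranged from -0.89 to -0.58 in males and from -0.65 to -0.41 in females. Srd5a1, the lowest in level, moved most of these with no pseudocount, to -1.28 in males and -1.24 in females. These values have no replicate check.

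**Figure D4:**
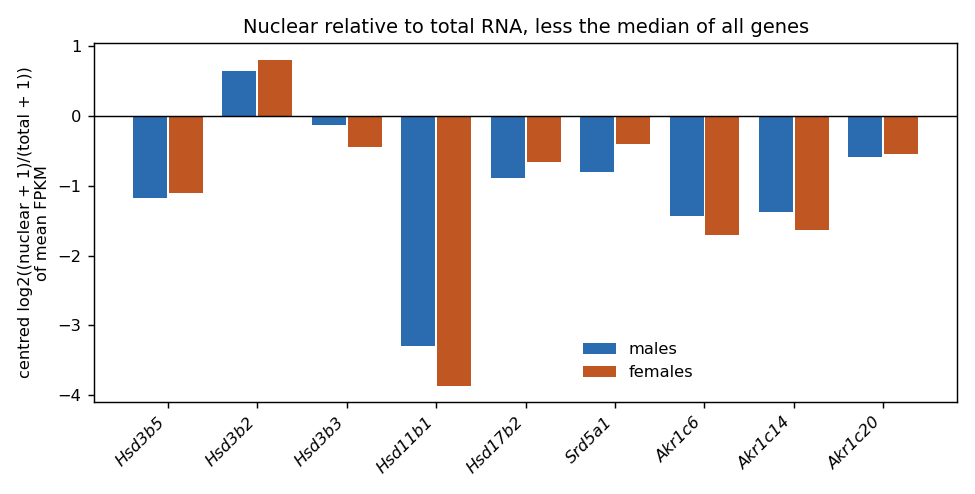
Centred log2((nuclear + 1)/(total + 1)) of mean FPKM (y axis) of each member in males (left bars) and females (right bars). Hsd3b2 lies above 0 in both sexes, the other 8 members below it, and Hsd11b1 lowest at -3.30 and -3.86.

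The sex difference was compared between fractions without a test. The deposited log2 in nuclear RNA was above that in total RNA for 5 of 9 members. The share over all genes was not computed, so this count shows nothing particular to the members. The widest gap was in Hsd3b5 (0.75), followed by Hsd11b1 (0.48) and Hsd3b3 (0.31) in the authors' deposited table. The gap of Srd5a1 was -0.02 and that of Hsd17b2 -0.34 in the authors' deposited table. On unscaled quotients the gaps of Hsd3b5, Hsd11b1 and Hsd3b3 were 0.99, 0.85 and 0.61, while those of Hsd3b2, Akr1c20 and Srd5a1 took the other sign (0.04, 0.12 and 0.31). In the median gene the scaling added 0.48 in total and 0.12 in nuclear RNA, so unscaled gaps lie higher for genes in general. Whether any gap exceeds the spread between pools was not tested.

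Likeness to other genes was measured as the Euclidean distance over log2 male over female in nuclear RNA, the same in total RNA, and the centred nuclear over total value averaged over the sexes, among 7283 genes. The nearest gene to Hsd3b5 was Cyp7b1, an oxysterol hydroxylase, at a distance of 0.33. In the authors' deposited table Cyp7b1 had log2 3.38 in nuclear and 2.93 in total RNA. Hsd11b1 lay nearest to Apoa2, an apolipoprotein (0.05), and Hsd17b2 nearest to Apoa5, another apolipoprotein (0.09). The nearest to Akr1c6 was Atp5c1, an ATP synthase subunit (0.03), to Akr1c14 Gclm, of glutathione synthesis (0.08), and to Akr1c20 As3mt, an arsenic methyltransferase (0.13). Hsd3b3 lay nearest to Rbbp4, a histone-binding protein (0.10), Hsd3b2 to Nudt7, a peroxisomal hydrolase (0.32), and Srd5a1 to Ugt2b35, a glucuronosyltransferase (0.46). No member was the nearest gene of another member.

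Other steroid enzymes and related genes were taken from a list of 29, of which 28 were in the table. The list was wider than the families of the members, and held H6pd and Rdh16 among others. It was chosen with earlier results of these data known, so its counts are descriptions. Over all RefSeq genes above 0 the called share was 5.8% in nuclear and 4.46% in total RNA. Of the listed enzymes above 0, 4 of 26 were called higher in males and 2 in females in nuclear RNA. In total RNA 3 of 24 were called on either side, by the authors' deposited table. The median deposited log2 of those of at least 1 FPKM was 0.45 in nuclear RNA (13 genes) and 0.20 in total RNA (15 genes), against -0.01 and 0.00 over all genes. Unscaled, these medians were 0.34 and -0.28, against -0.13 and -0.48 over all genes, so the sign in total RNA depends on the scaling. The nuclear male-higher genes included further aldo-keto reductases of chromosome 13. Akr1c19 had 4.43 FPKM in male and 1.71 FPKM in female nuclear RNA, against 5.01 FPKM in male and 5.41 FPKM in female total RNA. The authors' deposited table gave Akr1c19 a log2 of 1.49 at adjusted p = 2.7e-18 in nuclear and log2 0.41 at adjusted p = 0.49 in total RNA. Akr1c13 followed with log2 1.01 at adjusted p = 0.029 in nuclear RNA in the authors' deposited table, but its reading frame was 96.2% identical to that of Akr1c12. The lipid droplet genes Hsd17b11 and Hsd17b13 had log2 0.66 and 0.55, with adjusted p = 0.01 and 0.013, in nuclear RNA in the authors' deposited table.

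In females Hsd3b7, a bile acid synthesis enzyme, was higher in nuclear RNA, at 20.9 FPKM in males and 27.6 FPKM in females (log2 -0.28 at adjusted p = 0.02 in the authors' deposited table). In total RNA the 5β-reductase Akr1d1 had 6.63 FPKM in males and 14.8 FPKM in females, and Rdh16, a retinol dehydrogenase, 1.64 FPKM in males and 4.40 FPKM in females. Akr1d1 had a log2 of -0.71 (adjusted p = 5.4e-08) and Rdh16 of -0.88 (adjusted p = 8.3e-05) in the authors' deposited table. Neither was called in nuclear RNA, where log2 was -0.41 for Akr1d1 and had the other sign, 0.36, for Rdh16. H6pd, which supplies NADPH to Hsd11b1 in the endoplasmic reticulum, had log2 0.60 at adjusted p = 0.00011, and Hsd17b12, of fatty acid elongation, log2 0.55 at adjusted p = 7.7e-05, both in total RNA in the authors' deposited table. Their unscaled values there were 0.11 for H6pd and 0.072 for Hsd17b12. Hsd17b4, a peroxisomal enzyme, was male higher in total RNA of the authors' deposited table, with log2 0.36 at adjusted p = 0.021, but its unscaled value was -0.14.

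**Figure D5:**
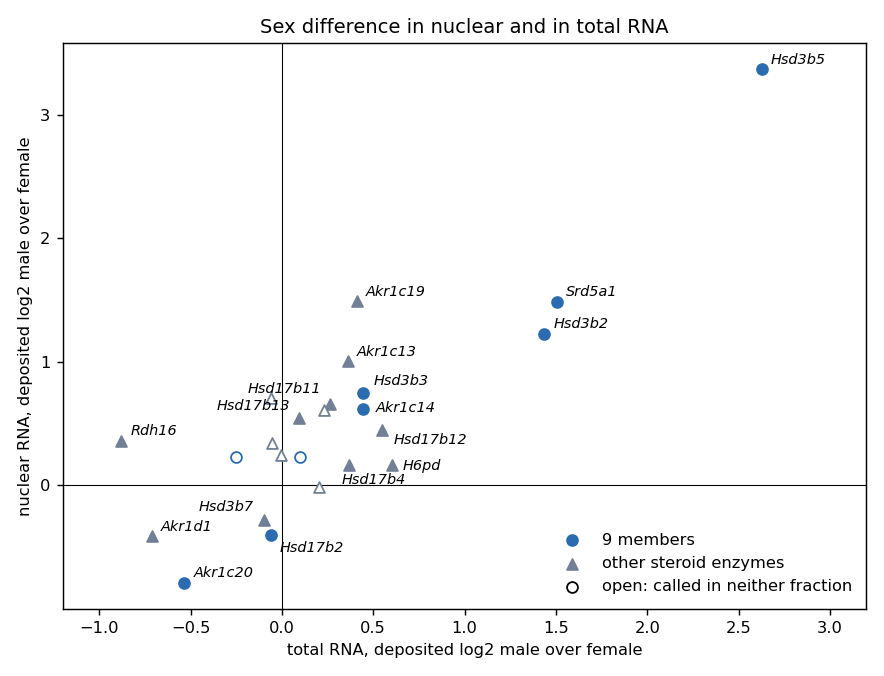
Deposited log2 male over female in total RNA (x axis) and nuclear RNA (y axis) of the 9 members (circles) and of the other steroid enzymes of at least 1 FPKM in a group (triangles), open where called in neither fraction. Hsd3b5, Srd5a1 and Hsd3b2 lie to the upper right, and Akr1c19 lies above Hsd3b2 on the y axis at a total RNA value of 0.41.

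Of 10 cytochrome P450 genes of steroid metabolism, 7 were above 0. The list was chosen with earlier results of these data known, so its counts are descriptions. Over all RefSeq genes above 0 the called share was 5.8% in nuclear and 4.46% in total RNA. Of the 7 P450 genes, 3 were called higher in males and 2 in females in nuclear RNA. In total RNA 3 were called on either side, by the authors' deposited table. Those of at least 1 FPKM had a median of 3.09 in nuclear RNA (3 genes) and 0.72 in total RNA (4 genes), or 2.98 and 0.25 unscaled. The 3 genes in nuclear RNA were those called higher in males, since the 2 called higher in females lay under 1 FPKM there. That median therefore does not describe the P450 genes as a group. The male-higher genes were Cyp7b1, Cyp2d9, a steroid 16α-hydroxylase of male mouse liver, and Cyp21a1, the 21-hydroxylase, at log2 3.38, 3.09 and 1.28 in nuclear RNA in the authors' deposited table. In females Cyp39a1, an oxysterol hydroxylase, was higher in both fractions, at log2 -1.53 in nuclear and -1.88 in total RNA, and Cyp46a1, the cholesterol 24-hydroxylase, in total RNA alone, at log2 -1.48, in the authors' deposited table. Cyp17a1 was called higher in females in both, at no more than 0.752 FPKM, and is named although it lay under 1 FPKM.

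Among 12 steroid receptors and binding proteins, 2 were called higher in males and 2 in females in nuclear RNA (10 above 0), and 4 higher in females and 0 in males in total RNA (11 above 0), in the authors' deposited table. The median of those of at least 1 FPKM was -0.15 in nuclear (7 genes) and -0.47 in total RNA (6 genes), or -0.27 and -0.95 unscaled. Over all genes of at least 1 FPKM these medians were -0.01 and 0.00, or -0.13 and -0.48 unscaled. The oestrogen receptor gene Esr1 had log2 -1.21 in nuclear and -1.03 in total RNA in the authors' deposited table. Nr1i3, the xenobiotic receptor CAR, had log2 -0.42 in nuclear and -0.54 in total RNA in the authors' deposited table. The mineralocorticoid receptor gene Nr3c2 (log2 0.77 at adjusted p = 2.4e-05) and the membrane protein gene Pgrmc1 (log2 0.67 at adjusted p = 1.5e-05) were higher in males in nuclear RNA in the authors' deposited table. Serpina6, which carries corticosteroids in plasma, had 15.4 FPKM in male and 46.9 FPKM in female total RNA, with log2 -1.09 at adjusted p = 3.5e-17 in the authors' deposited table. It was not called in nuclear RNA, where log2 was -0.15.

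Within 100 kb of the members lay 20 of the 15558 lncRNAs of the lncRNA table. Of these, 3 of 20 above 0 in nuclear RNA and 1 of 15 in total RNA were called, all higher in males, in the authors' deposited table, which over all lncRNAs above 0 called 4.88% in nuclear and 1.35% in total RNA. In the Hsd3b cluster ncRNA_inter_chr3_2638 (mm9 chr3:98402149-98404708, 1 exon), 17850 bp past the end of Hsd3b5, had the authors' mean of 0.266 RPKM in male and 0.0433 RPKM in female nuclear RNA. The authors' deposited table gave it a log2 of 2.60 at FDR = 0.0073. Another, ncRNA_inter_chr3_2640 (mm9 chr3:98541945-98542629, 1 exon), lay 2769 bp past the end of Hsd3b3 on the same strand, with 5.26 RPKM in male and 3.12 RPKM in female nuclear RNA. For it the authors' deposited table gave a log2 of 0.85 at FDR = 0.018, beside log2 0.75 for Hsd3b3. Neither of these lncRNAs was called in total RNA (FDR = 1 for each in the authors' deposited table). The closest lncRNA to Hsd3b5, ncRNA_inter_chr3_2639, lay upstream of it on the same strand, with its 3′ end 294 bp from the start of Hsd3b5, and is named after its values were seen. It had 0.458 RPKM in male nuclear RNA and was listed at 0 in female nuclear RNA, and it had 0.677 RPKM in male and 0.0699 RPKM in female total RNA. It was not called, with FDR = 0.25 in nuclear and FDR = 0.23 in total RNA in the authors' deposited table.

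Gm38416 (ncRNA_as_chr8_7521, mm9 chr8:120194330-120217109, 8 exons) ended 8736 bp before the start of Hsd17b2 on the same strand. It had 2.32 RPKM in male and 1.41 RPKM in female nuclear RNA, and 0.471 RPKM in male and 0.258 RPKM in female total RNA. The authors' deposited table gave Gm38416 a log2 of 0.82 at FDR = 1.3e-07 in nuclear and log2 1.23 at FDR = 0.00053 in total RNA. Its direction was thus opposite to the female-higher call of Hsd17b2 in nuclear RNA. The antisense lncRNAs that overlap Hsd11b1 and Hsd17b2 were not called in either fraction.

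Markers of other cells and tissues were read beside these genes. Of 10 markers of steroid-making cells 5 were listed at 0 in nuclear and 5 in total RNA, among them Cyp11a1, Cyp11b1, Cyp19a1 and Nr5a1 in both, and their summed level was 1.64 FPKM in male and 1.34 FPKM in female nuclear RNA and 0.385 FPKM in male and 1.29 FPKM in female total RNA. Of the 5 above 0, Cyp21a1 was called higher in males and Cyp17a1 and Hsd3b1 higher in females in both fractions of the authors' deposited table. Of 6 kidney tubule markers 4 were listed at 0 in nuclear and 5 in total RNA, Umod, Slc12a1, Kap and Aqp2 in both, with sums of at most 0.0133 FPKM in any group. Macrophage markers summed to 5.36 FPKM in male and 5.48 FPKM in female nuclear RNA, and to 10.3 FPKM in male and 22.3 FPKM in female total RNA, where 3 of 5 (Clec4f, Csf1r and Marco) were called higher in females in the authors' deposited table. Sinusoidal endothelial markers summed to 14.4 FPKM in male and 16.1 FPKM in female nuclear RNA and 9.21 FPKM in male and 14.9 FPKM in female total RNA, stellate markers to 5.30, 5.16, 9.84 and 15.4 FPKM and cholangiocyte markers to 0.777, 0.647, 2.66 and 2.40 FPKM in the same groups. Of these, Reln was called higher in females and Spp1 higher in males, both in total RNA, and no marker of these 3 lists in nuclear RNA, in the authors' deposited table. Their part in the sex differences was not tested.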

How the data were processed

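Total RNA and RNA of nuclei purified through sucrose were sequenced from pooled livers with a strand-keeping kit, per the labels' protocols. The submitters' processing notes name TopHat2, featureCounts, edgeR and the build mm9, but neither versions nor roles. The RefSeq table has the authors' group means in FPKM, their normalized ratio of males over females, the fold as a signed number and the adjusted p-value, per the file headers. The deposited lncRNA table holds mean RPKM, log2 fold change, p-value and false discovery rate, of which edgeR gave the last 3, per the file headers and legend. In 3 lncRNA rows the values stand in another order, and these were left out.

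Calls rest on the authors' adjusted p over the whole table at 0.05, since the tables hold means and comparisons only (0 columns of single pools were left unused). The planned interaction test needs values per pool and was not run. Nuclear over total used a pseudocount of 1 FPKM, which understates differences of low genes. Library sizes were recovered from single-location genes under 3 kb, taken as having 1 read in 1 of 3 pools. Only implied sizes inside a fixed window were kept, so no size outside it could be found. The commonest size was shared by 26 (male nuclear) to 37 (male total and female total) genes. These sizes cover 1 library per group and are approximate. Exonic lengths, strand and reading frames come from GENCODE M21 and promoters from RefSeq, on GRCm38, with no coordinates converted; 7 of 9 members matched a promoter. Identities are from global alignments in Biopython 1.88. Python 3.11.15, numpy 2.4.6, pandas 2.3.3 and matplotlib 3.10.9 were used, and the centring and motif search were tested on simulated data.

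The members and gene lists were chosen with earlier results of these data known, so their counts are descriptions. All 9 members are named, as are listed genes called in a fraction with at least 1 FPKM in a group, called lncRNAs within 100 kb, and the nearest gene of each member. A listed gene that enters the counts is not reported here by name. Alternatives were a threshold of 0.01, a fold change over 2, unscaled quotients, other pseudocounts, no centring and a minimum of 1 FPKM.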

Additional observations from a re-analysis of the deposited data

How the results depend on the processing

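Reading directions from the unscaled quotient changed the sign of no member that was called. This alternative kept the authors' adjusted p, so it could not remove a call. Hsd3b3 in total RNA kept its sign at an unscaled log2 of only 0.02. Without scaling, total RNA values of Akr1c6 and Akr1c14, neither called there, turned to -0.39 and -0.0805 (-0.38 and -0.0756 with a pseudocount of 1), and the gaps between fractions of Hsd3b2, Srd5a1 and Akr1c20 to 0.0385, 0.31 and 0.12; the scaling difference is built into that alternative. With a fold change over 2 as well, 3 members were called higher in males and 0 in females in nuclear RNA, and 0 in females in total RNA. The share over all genes was not computed at this or the following settings, so these counts show nothing particular to the members. At an adjusted p under 0.01, 1 member (Akr1c20) was called higher in females in nuclear RNA, and 1 other steroid enzyme in each direction there. With at least 1 FPKM in a sex, 1 other enzyme and 0 P450 genes were called higher in females in nuclear RNA. The other counts moved by no more than 1.5 times. Among these, members called higher in males in total RNA fell from 4 to 3 at an adjusted p under 0.01. Hsd3b3, at adjusted p = 0.015 in the authors' deposited table, dropped out there. With at least 1 FPKM in a sex, members called higher in males in nuclear RNA fell from 5 to 4, and Srd5a1 dropped out.

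The median log2 nuclear over total of the members was -0.89 in males and -0.65 in females. It was -1.23 and -1.05 with a pseudocount of 0.1, -1.21 and -1.24 with none, -0.97 and -0.96 without centring, and -0.99 and -0.96 centred on all genes above 0. With a pseudocount of 0.1, Srd5a1 lay at -1.23 in males and -1.05 in females, and Hsd3b5 at -1.73 in females. Under each of these settings 8 members lay below 0 in both sexes, with Hsd11b1 lowest, and Hsd3b2 above 0. No paired analysis was possible because the tables hold group means, and leaving out pools in turn and the replicate block were not run for the same reason. About 22 and 23 reads per pool limit the precision of Srd5a1 and Hsd3b5 in female nuclear RNA.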
